A study of Moricandia suffruticosa and Brassica napus with 23 samples.

Results

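The clade A protein phosphatases 2C of Brassica napus (oilseed rape) were taken as every gene model in the deposited leaf table whose best Arabidopsis match is 1 of 9 loci: ABI1 (AT4G26080), ABI2 (AT5G57050), HAB1 (AT1G72770), HAB2 (AT1G17550), PP2CA (AT3G11410), AHG1 (AT5G51760), HAI1 (AT5G59220), HAI2 (AT1G07430) and HAI3 (AT2G29380). The rule used the annotation and no measured value, though it was set with earlier results of these data known. It found 34 gene models of 101040. The 9 leaf libraries came from soil-grown plants aged 35 days, kept under 16 h light in air of 60% humidity at 25 °C. They are 3 untreated controls, 3 from plants without water for 3 days (drought) and 3 from plants held at 40 °C for 3 h (heat), so n = 3 in every group. All carry the code 29005 in their titles, whose meaning the labels do not give, and neither a cultivar nor the number of plants per library is given in the sources used here. Another 14 samples, of the wild relative Moricandia suffruticosa, were not analysed here.

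In Arabidopsis, clade A phosphatases are the co-receptors and brakes of abscisic acid signalling, the hormone pathway of water shortage. Without the hormone they dephosphorylate SnRK2 kinases and hold them inactive. When a PYR/PYL receptor binds the hormone it also binds the phosphatase and blocks its active site, which frees the kinases to phosphorylate ABF transcription factors and guard-cell channels. Several of the phosphatase genes are themselves induced by abscisic acid there, and the HAI genes are named for it (highly ABA-induced).

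Oilseed rape joins an A and a C subgenome, and the gene models' names carry the subgenome and chromosome (BnaC05g41830D lies on chromosome 5 of C). Of the 34 models, 18 lie on A and 16 on C, with 9 for ABI1, 5 for HAI2, 4 each for HAB2 and PP2CA, 3 each for ABI2 and HAB1 and 2 each for AHG1, HAI1 and HAI3. The InterPro entry of the protein phosphatase 2C family stands with 30 models, and the other 4 carry no entry and are short. That entry marks the whole family and, like the match to Arabidopsis, rests on sequence, so placing the models in clade A rests on the match alone. In 28 models the match covered at least 50% of the Arabidopsis protein, with a length of 250 to 501 amino acids and an identity of 60.53% to 85.77%. The remaining 6 are fragments of 49 to 171 amino acids. Copies of 1 locus are close in sequence and how reads were divided between them is not given in the sources used here, so near-identical copies have uncertain single levels. The sum over copies is given beside it.

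Levels are in FPKM, a level per kilobase of coding length relative to the reads assigned in the library, which allows genes of different length to be compared. Assigned reads numbered 12173804 to 12934922 per library, and 1 read on 1 kb was worth 0.0773 to 0.0821 FPKM. Libraries of 1 group correlated at 0.983 to 0.986 over the 44260 rows that were tested. Whether each library is a separate plant is not stated, and the p-values therefore reflect variation among these libraries only, possibly technical. All 6 leaf mesophyll markers and all 5 guard-cell markers were present. Of the root, seed and floral markers, 1 of 6, 1 of 5 and 0 of 4 reached a mean of 1 FPKM. In bulk leaf, fewer cells of a type and less RNA per cell cannot be told apart.

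Of the 34 models, 25 reached 1 FPKM in at least 3 libraries and were tested, 23 of them not fragments. The other 9 held few or no reads. Both AHG1 models were among them, a phosphatase known in Arabidopsis from seeds and germination. BnaA03g13020D had no read in any control library, 9, 2 and 4 reads in the drought libraries, and 5 reads in 1 heat library. BnaC03g15880D had no read in any library, where 3 reads would have been 0.197 to 0.210 FPKM. The HAI3 models BnaA05g12650D and BnaC04g14090D had 11 and 6 reads over all 9 libraries, and HAI2 BnaC06g06590D had 3. Of 4 untested fragments, BnaA01g20940D of ABI1 had 7 reads and 3 stood at 0. AHG1 and HAI3 were thus not detectable as more than traces in leaf at this depth in any group.

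**Figure D1:**
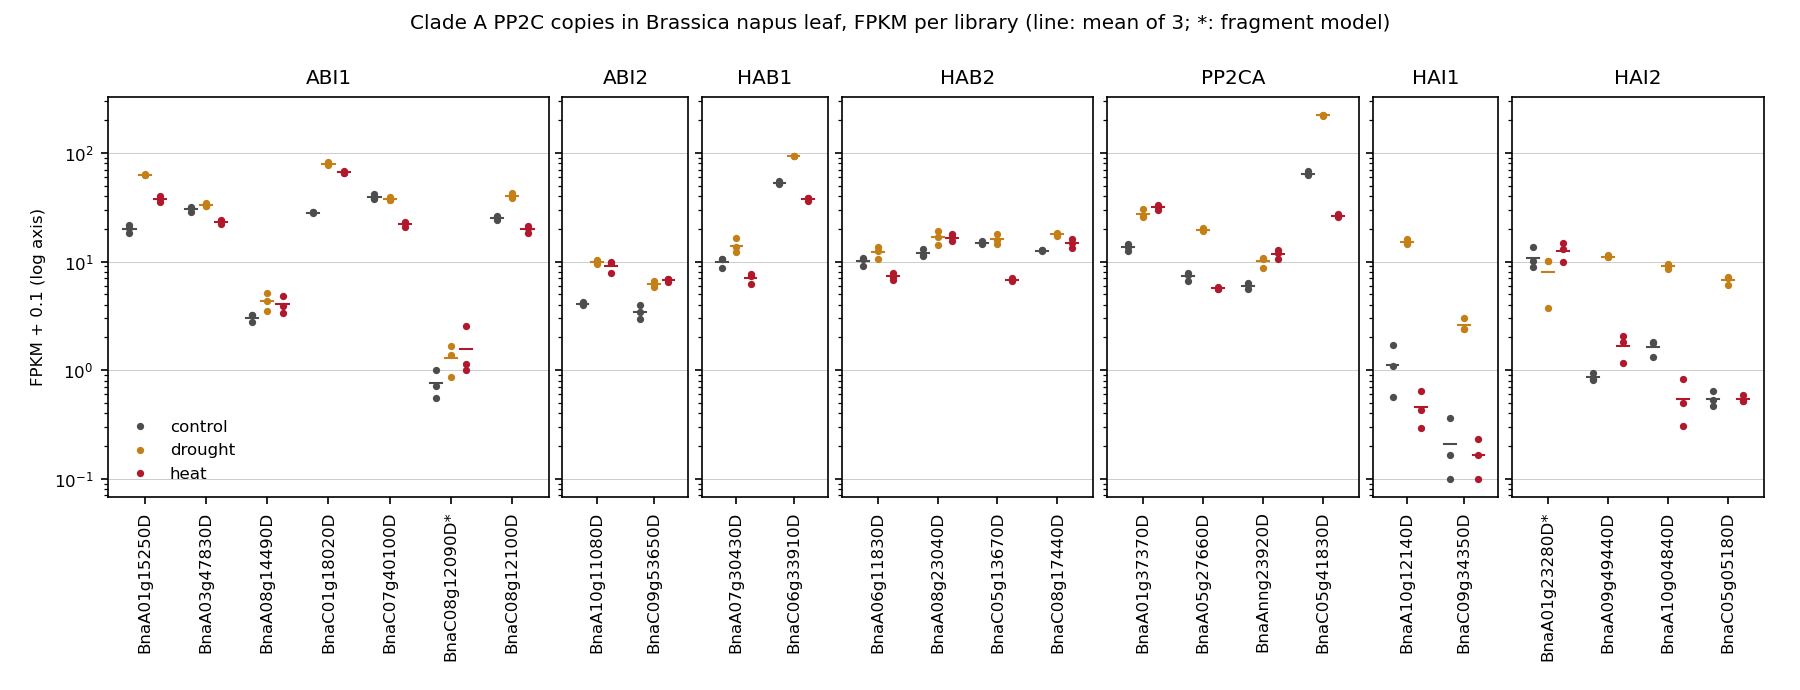
FPKM of each tested copy in every library (log axis, 0.1 FPKM added so that a value of 0 can be drawn), by locus. Points are libraries, lines are means of 3, colours are control, drought and heat, and a star marks a fragment model. The HAI1 copies and the 3 full HAI2 copies are high in drought libraries alone, while BnaC05g41830D of PP2CA is the highest copy in control and drought and is below control in heat.

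In control leaf the summed level differed between loci by more than 2 orders of magnitude. ABI1 led with 146 ± 1.34 FPKM (SD, n = 3), followed by PP2CA with 91.1 ± 3.63, HAB1 with 62.9 ± 1.997 and HAB2 with 49.2 ± 0.525. HAI2 stood at 13.5 ± 2.45, ABI2 at 7.35 ± 0.658 and HAI1 at 1.12 ± 0.545. No 2 neighbours in this order overlapped between libraries, down to HAI1. Below it, HAI3 at 0.119 ± 0.149 and AHG1, listed at 0, overlapped. The place of HAI2 rests on a fragment, BnaA01g23280D, a model of 59 amino acids with 8 to 34 reads per library, which held 79.3% of the control sum. Without fragments HAI2 stood at 2.74 ± 0.130 FPKM, below ABI2.

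The order differed under stress. In drought PP2CA, at 279 ± 6.63 FPKM, stood above ABI1, at 258 ± 6.16, with no overlap, and HAI1 stood above ABI2. In heat ABI1 led with 175 ± 4.43 FPKM and PP2CA followed with 75.1 ± 1.16. There HAB2 and HAB1 overlapped, at 45.1 ± 0.968 and 44.4 ± 1.34 FPKM. ABI2 and HAI2 overlapped too, at 15.7 ± 0.98996 and 15.0 ± 3.14, though not without the fragment, when HAI2 was 2.54 ± 0.677.

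Over all 34 models the level was 368, 379 and 367 FPKM in the control libraries, 778, 769 and 779 in drought and 371, 374 and 367 in heat. The drought mean was 2.09 times the control mean. The heat mean was 0.998 times it, and the heat and control libraries overlapped. These levels are unscaled. Scaling the libraries moved the median log2 change of all rows in heat by -0.15 or -0.12, by the method. The total was not computed on scaled levels, so the near equality of heat and control is shown for unscaled levels only. The sum on A was 129.7 ± 3.91 FPKM in control, 252.6 ± 9.18 in drought and 168.8 ± 0.256 in heat. On C it was 242 ± 3.19, 523 ± 4.47 and 202 ± 3.43. Both sums were thus higher in drought, whereas in heat that of A was higher and that of C lower, with a total close to that of control. On C, BnaC05g41830D of PP2CA alone went from 64.5 ± 2.74 FPKM in control to 222 ± 3.58 in drought and 26.3 ± 0.804 in heat. Other C copies moved both ways in heat. HAB1 BnaC06g33910D went from 53.1 to 37.4 FPKM and ABI1 BnaC07g40100D from 39.1 to 22.1, while ABI1 BnaC01g18020D went from 28.2 to 66.2. The lower sum of C in heat was thus a net of such moves. Whether it is a trait of the subgenome was not tested.

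Drought against control asked how the family's transcripts responded to withheld water. Of 25 copies tested, 10 were higher and 0 lower, where 5.12% of all 44260 rows tested were higher and 6.87% lower. A call needed an adjusted p under 0.05 and a change of at least 1 in size in log2(FPKM + 1), a scale on which changes of low genes come out too small. The median log2 change was 0.71 over the copies and -0.06 over all rows. Called copies came from ABI1 (2 of 7), ABI2 (1 of 2), PP2CA (2 of 4), HAI1 (2 of 2) and HAI2 (3 of 4), and from none of the 2 of HAB1 or the 4 of HAB2. Both HAI1 copies and BnaC05g05180D of HAI2 reached 1 FPKM in 3 libraries only with drought counted. They were thus tested because they were high in drought, and their calls are no independent support for a rise of the family. On the adjusted p alone 18 copies were higher and 0 lower, against 19.6% and 26.5% of rows.

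With copies summed, 4 of 7 loci were called higher and 0 lower, against 5.08% and 7.31% of 16186 loci. HAI1 rose by 3.16 ± 0.18 (log2 change ± SE), PP2CA by 1.61 ± 0.04, HAI2 by 1.3002 ± 0.15 and ABI2 by 1.01 ± 0.09. The adjusted p of these 4 in limma lay between 2.98e-12 and 7.53e-06. The HAI1 sum too reached 1 FPKM in 3 libraries only with drought counted. The sums of ABI1, HAB1 and HAB2 gave 0.82 ± 0.04, 0.76 ± 0.05 and 0.33 ± 0.05, under the size required. Of the 7 loci, HAI1, PP2CA and HAI2 thus gave the largest changes, and HAB2 the smallest. HAI1 holds its place as a locus tested only through its drought libraries, and HAI3 was not tested. Whether the order goes with induction by abscisic acid was not tested.

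HAI1 is a phosphatase whose loss in Arabidopsis changes growth and osmolyte build-up at low water potential. Its copy BnaA10g12140D had 1.59, 0.460 and 0.993 FPKM in control, 16.2, 14.4 and 14.6 in drought and 0.195, 0.537 and 0.329 in heat. Every drought library was above every other library, and the log2 change was 3.03 ± 0.19 (adjusted p = 1.90e-07, limma). The C copy BnaC09g34350D had 0, 0.0655 and 0.264 FPKM in control, 0 to 4 reads, and 2.897, 2.31 and 2.2998 in drought. It rose by 1.66 ± 0.15. The difference between the responses of the copies was 1.37 (95% interval 0.84 to 1.90, adjusted p = 0.00219, limma on the log2 ratio of the copies). This difference comes with the pseudocount of 1 FPKM, which holds back the change of the lower copy. With 0.1 FPKM the copies changed by 3.90 and 3.83, and the difference was 0.07 (-1.67 to 1.81, adjusted p = 0.958, limma). The ratio of the drought to the control mean was 14.8 for BnaA10g12140D and 22.8 for BnaC09g34350D.

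HAI2, a close relative of HAI1 also called AIP1, had 3 full copies above the filter, and all 3 rose. BnaA09g49440D had 0.721, 0.715 and 0.839 FPKM in control and 11.3, 10.8 and 10.9 in drought. BnaC05g05180D had 0.426, 0.362 and 0.547 in control and 6.99, 7.08 and 5.93 in drought. BnaA10g04840D had 1.68, 1.73 and 1.21 in control and 8.47, 8.91 and 9.34 in drought. Their log2 changes were 2.77 ± 0.14, 2.41 ± 0.13 and 1.97 ± 0.16, and no 2 of these copies differed in response by the size required. With a pseudocount of 0.1 FPKM the pair of BnaA09g49440D and BnaA10g04840D did, by 1.22 (adjusted p = 0.0447, limma). The fragment BnaA01g23280D gave -0.49 ± 0.30 (adjusted p = 0.208, limma), with 20, 31 and 23 reads in control and 22, 8 and 23 in drought. It differed from each full copy in response. Without fragments the HAI2 sum went from 2.74 ± 0.130 to 26.6 ± 0.402 FPKM, a log2 change of 2.88 ± 0.13 in place of 1.3002, a choice made after the data were seen.

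PP2CA, also called AHG3, is a main brake on abscisic acid responses of Arabidopsis seeds and guard cells. Its copy BnaC05g41830D was the highest of all 34 models in control and drought, with 62.0, 67.4 and 64.1 FPKM in control and 224.5, 218 and 224 in drought. It held 70.8% ± 0.813 of the locus in control and 79.6% ± 0.766 in drought. BnaA05g27660D rose from 6.46, 7.40 and 7.71 FPKM to 20.1, 19.5 and 19.2. The log2 changes of these 2 copies were 1.77 ± 0.05 and 1.33 ± 0.09. BnaA01g37370D, with 13.5 ± 1.01 FPKM in control and 27.3 ± 2.67 in drought, gave 0.97 ± 0.09, just under the size required. It passed with a pseudocount of 0.1 FPKM (1.01), with TMM-type scaling (1.05), with voom (1.02) and without control replicate 3 or drought replicate 2 (1.01 and 1.02). BnaAnng23920D, on A but on no numbered chromosome, gave 0.67 ± 0.11. Of the 6 pairs of PP2CA copies 1 differed in response, BnaAnng23920D and BnaC05g41830D, by 1.10 (95% interval 0.81 to 1.40).

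ABI1, the phosphatase whose dominant mutation made Arabidopsis insensitive to abscisic acid, had 7 tested copies that did not move alike. BnaA01g15250D had 18.1, 20.3 and 21.5 FPKM in control and 62.1, 62.0 and 64.5 in drought. BnaC01g18020D had 28.6, 28.2 and 27.7 in control and 77.8, 82.5 and 78.4 in drought. These copies, both on chromosome 1 of their subgenome, rose by 1.61 ± 0.07 and 1.47 ± 0.05. BnaA03g47830D, at 30.4 ± 1.57 in control and 33.0 ± 1.41 in drought, gave 0.12 ± 0.07, and BnaC07g40100D, at 39.1 ± 2.48 and 37.7 ± 1.65, gave -0.05 ± 0.07. BnaC08g12100D gave 0.64 ± 0.07, BnaA08g14490D 0.39 ± 0.15 and the fragment BnaC08g12090D 0.40 ± 0.24. BnaC07g40100D, the highest ABI1 copy in control with 26.7% of the locus, held 14.6% in drought, while BnaC01g18020D went from 19.2% to 30.8%. Of 21 pairs of ABI1 copies 8 differed in response, each time 1 of the chromosome 1 copies against BnaA03g47830D, BnaC07g40100D, BnaA08g14490D or the fragment. With a pseudocount of 0.1 FPKM the 2 pairs with the fragment no longer passed, at 0.89 (-0.15 to 1.93) against BnaA01g15250D and 0.73 (-0.20 to 1.65) against BnaC01g18020D.

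Over the 7 loci, 13 of 42 pairs of copies differed in their drought response by at least 1 in log2 ratio with an adjusted p under 0.05. Among all 55054 pairs of tested copies of 1 locus the share was 10.9%. Of the 13 pairs, 3 hold the HAI2 fragment and 2 the ABI1 fragment. No pair of ABI2, HAB1 or HAB2 copies passed. The count depends on the pseudocount where a copy is low. With 0.1 FPKM 11 of 42 pairs passed, against 13.6% of all pairs. Of the 13 pairs 10 were among them, and the HAI1 pair and both pairs with the ABI1 fragment were not.

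ABI2, the closest relative of ABI1, was low. BnaA10g11080D went from 4.10, 4.06 and 3.84 FPKM in control to 10.2, 9.39 and 9.50 in drought and rose by 1.10 ± 0.10. BnaC09g53650D went from 3.35 ± 0.531 to 6.11 ± 0.457 and gave 0.71 ± 0.11. Every drought library was above every control library for both. The call on the ABI2 sum rests on single libraries, since it was 0.95 without control replicate 3, 0.99 without drought replicate 1 and 0.9997 without drought replicate 3, against 1.01 with all.

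HAB1 and HAB2 are further co-receptors of abscisic acid and close relatives of each other. BnaC06g33910D held 84.4% ± 1.21 of HAB1 in control, with 52.1, 54.7 and 52.5 FPKM in control and 94.1, 93.0 and 93.0 in drought. Its log2 change was 0.80 ± 0.05, larger than the spread between libraries but under the size required. BnaA07g30430D gave 0.46 ± 0.12. The 4 HAB2 copies, each between 10.1 and 14.8 FPKM on average in control, gave 0.10 to 0.47. Only BnaA08g23040D and BnaC08g17440D of the HAB2 copies passed the adjusted p alone, at 0.44 ± 0.11 and 0.47 ± 0.08.

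**Figure D2:**
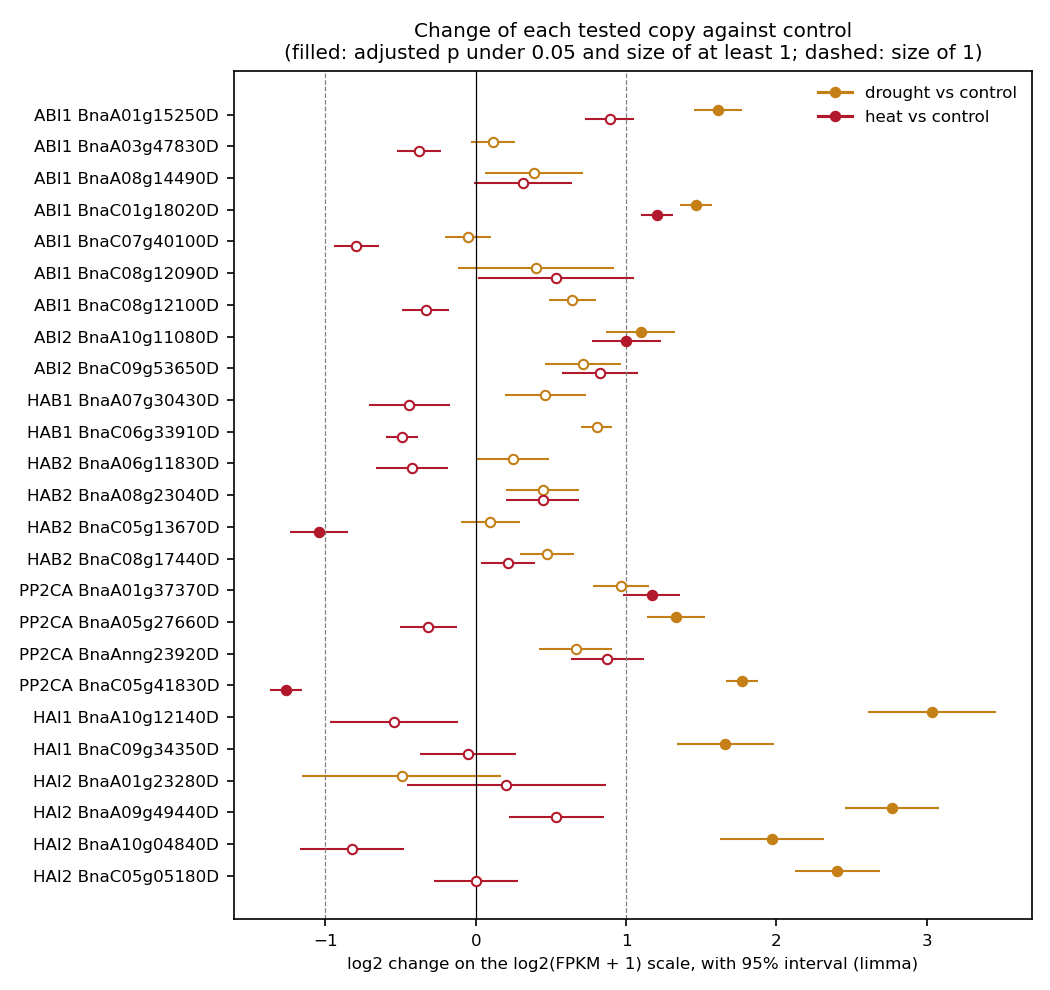
Log2 change of each tested copy against control on the log2(FPKM + 1) scale, with its 95% interval, in drought and in heat; filled points are called. In drought 10 copies are called, all to the right, from 1.10 to 3.03. In heat 3 are called to the right and 2 to the left, and copies of ABI1, HAB2, PP2CA and HAI2 lie on both sides of 0.

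Heat against control asked the same of leaves at high temperature. Of the 25 copies, 3 were higher and 2 lower, against 14.4% and 11.2% of all rows, so the share called was near that of the table as a whole. With TMM-type scaling (factors from a trimmed mean of log ratios) 1 copy was higher and 2 lower, and with voom 4 and 4. The median log2 change was 0.00 over the copies and 0.16 over all rows. On the adjusted p alone 9 copies were higher and 11 lower, against 40.1% and 27.6%. The copies higher in heat were BnaC01g18020D of ABI1, BnaA01g37370D of PP2CA and BnaA10g11080D of ABI2. The copies lower in heat were BnaC05g41830D of PP2CA and BnaC05g13670D of HAB2. Scaling shifted the median of all rows in heat by -0.15 (TMM-type) or -0.12 (quantile normalization), and the share of higher calls went from 56.2% to 45.0% or 48.7%.

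With copies summed, 1 of 7 loci, ABI2, was called higher, by 1.005 ± 0.09, and 0 were called lower, against 14.5% and 10.4% of all loci. On the adjusted p alone 2 were higher and 4 lower, where 7566 and 4820 of all 16186 loci were. The sums gave 0.26 ± 0.04 for ABI1, 0.14 ± 0.15 for HAI2, -0.12 ± 0.05 for HAB2, -0.27 ± 0.04 for PP2CA, -0.49 ± 0.05 for HAB1 and -0.55 ± 0.18 for HAI1. The small changes of the PP2CA and ABI1 sums stood beside opposite moves of single copies.

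In PP2CA, BnaC05g41830D fell from 62.0, 67.4 and 64.1 FPKM to 27.2, 26.0 and 25.7 in heat, a log2 change of -1.26 ± 0.05 (adjusted p = 1.47e-09, limma). BnaA01g37370D rose from 12.4, 13.6 and 14.4 to 31.7, 33.0 and 29.9, by 1.17 ± 0.09 (adjusted p = 3.46e-07, limma), or by 0.99 with TMM-type scaling, where it missed the size required. In neither copy did heat and control libraries overlap. BnaAnng23920D, of the same length as BnaA01g37370D (371 amino acids), gave 0.88 ± 0.11, and BnaA05g27660D, of the same length as BnaC05g41830D (393), gave -0.32 ± 0.09. The share of the locus held by BnaC05g41830D thus fell from 70.8% to 35.0% ± 0.544, and that of BnaA01g37370D went from 14.8% to 42.0% ± 1.88, which made it the highest PP2CA copy in heat. The responses of BnaA01g37370D and BnaC05g41830D differed by 2.43 (95% interval 2.17 to 2.69). Of 6 pairs 4 differed, each between a model of 371 and a model of 393 amino acids. The pair of 371 differed by 0.29 (-0.05 to 0.63) and the pair of 393 by 0.95 (0.70 to 1.19).

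In ABI1 the chromosome 1 copies were again the high ones. BnaC01g18020D had 65.1, 67.9 and 65.6 FPKM in heat and rose by 1.20 ± 0.05, and BnaA01g15250D, with 40.4, 35.6 and 37.3, gave 0.89 ± 0.07. BnaC07g40100D went to 20.8, 22.9 and 22.6 FPKM, below every control library, and gave -0.80 ± 0.07. BnaA03g47830D and BnaC08g12100D, also below every control library, gave -0.38 ± 0.07 and -0.33 ± 0.07. BnaC01g18020D held 37.8% ± 1.0005 of ABI1 in heat and BnaC07g40100D 12.6% ± 0.817. Of 21 pairs 8 differed, the widest being BnaC01g18020D against BnaC07g40100D, by 1.999 (95% interval 1.76 to 2.23). Since drought and heat share the control libraries, the resemblance between the 2 treatments in ABI1 was not tested.

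In HAB2, BnaC05g13670D fell from 15.5, 14.6 and 14.4 FPKM to 6.67, 6.88 and 6.49, a log2 change of -1.04 ± 0.09, and BnaA06g11830D gave -0.43 ± 0.11. The copies BnaA08g23040D and BnaC08g17440D, shorter models of 350 amino acids against 496 and 501, gave 0.45 ± 0.11 and 0.21 ± 0.08. BnaC05g13670D differed in response from each of these shorter copies, by 1.49 and 1.26. Both HAB1 copies were below every control library, and BnaC06g33910D, with 38.3, 36.0 and 38.0 FPKM, gave -0.49 ± 0.05. The HAB1 copies differed from each other by 0.05 (95% interval -0.28 to 0.38).

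ABI2 was the locus that stood above control in heat in both copies. BnaA10g11080D had 7.74, 9.86 and 9.55 FPKM and rose by 1.001 ± 0.10, and BnaC09g53650D had 6.87, 6.39 and 6.82 and gave 0.83 ± 0.11. The call is at the edge of the size required. The sum gave 0.83 with TMM-type scaling, 0.82 with quantile normalization, 0.95 without control replicate 3, and 0.98 without heat replicate 2 or without heat replicate 3. BnaA10g11080D gave 0.84, 0.88, 0.98, 0.94 and 0.96 under the same alternatives.

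No HAI copy or sum was called higher in heat. HAI1 BnaA10g12140D rested on 3, 8 and 5 reads and gave -0.54 ± 0.19, with heat and control libraries overlapping. In HAI2, BnaA09g49440D gave 0.54 ± 0.14, BnaC05g05180D 0.00 ± 0.13 and BnaA10g04840D -0.82 ± 0.16, the last with all heat libraries below all controls. At these levels the pseudocount of 1 holds changes back. With 0.1 FPKM the HAI1 sum passed as lower in heat, at -1.14, as it did with voom at -1.25. BnaA10g12140D gave -1.23 and -1.38, and BnaA10g04840D -1.69 and -1.86.

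In heat 16 of 42 pairs of copies differed in response, against 24.7% of all pairs. They were 8 of 21 in ABI1, 4 of 6 in PP2CA, 2 of 6 in HAB2 and 2 of 6 in HAI2, and 1 pair each of ABI1 and HAI2 holds a fragment. None was in ABI2, HAB1 or HAI1, which have 1 pair each. With a pseudocount of 0.1 FPKM these 16 and another 3 pairs passed, against 29.6% of all pairs.

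**Figure D3:**
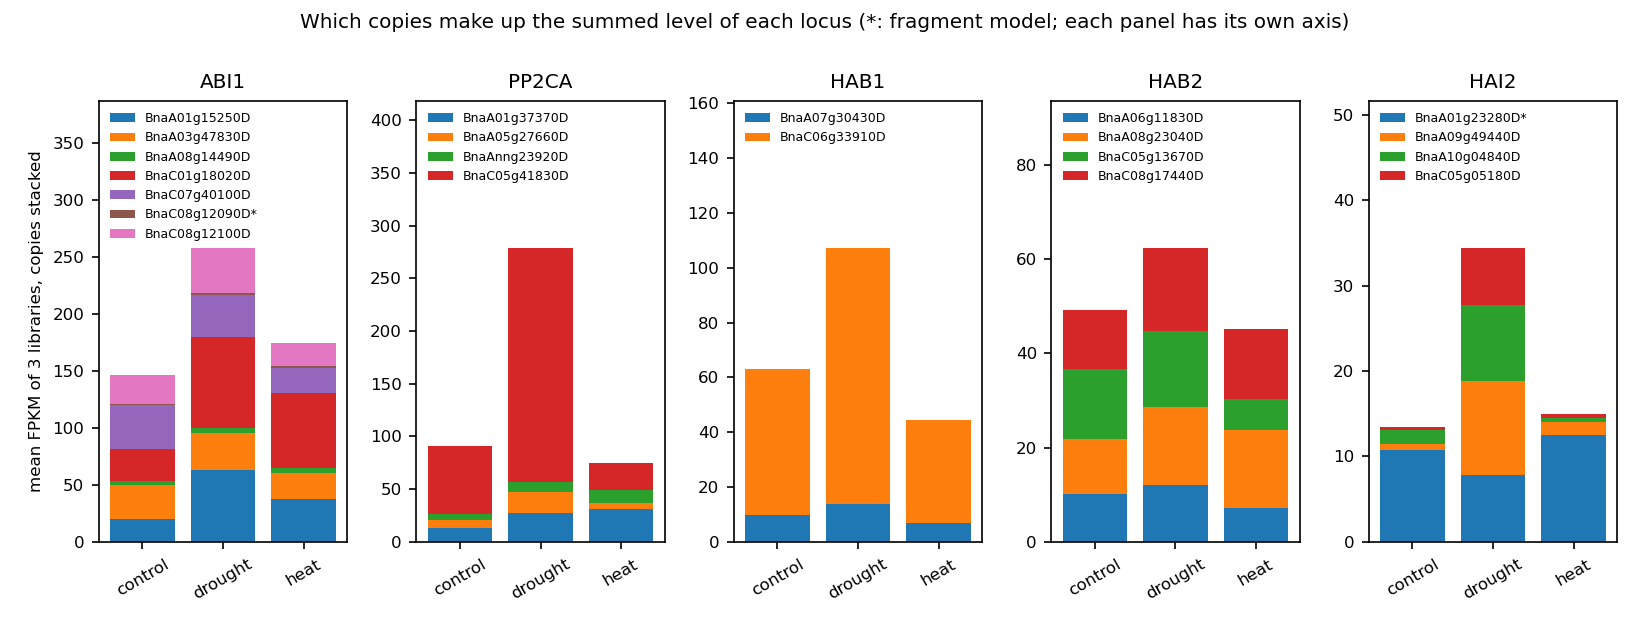
Mean FPKM of 3 libraries per group, stacked by copy, for the loci with several expressed copies; each panel has its own axis from 0 and a star marks a fragment model. In PP2CA the copy BnaC05g41830D fills 70.8% of the control bar, 79.6% of the drought bar and 35.0% of the heat bar, and in HAI2 the fragment fills most of the control and heat bars but 22.2% of the drought bar.

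Heat against drought compared the treatments directly. Of the 25 copies 0 were higher and 9 lower in heat, against 17.5% and 11.1% of all rows, and the median log2 difference was -0.72 against 0.20. On the adjusted p alone 0 were higher and 17 lower, against 42.9% and 26.7%. With scaling the share of higher calls over all rows went from 61.3% to 46.5% (TMM-type) or 49.5% (quantile). The 9 copies were both of HAI1 (-3.57 and -1.72), the 3 full HAI2 copies (-2.79 to -2.23), BnaC05g41830D and BnaA05g27660D of PP2CA (-3.03 and -1.65), BnaC06g33910D of HAB1 (-1.297) and BnaC05g13670D of HAB2 (-1.14). Both HAI1 copies, the HAI1 sum and BnaC05g05180D of HAI2 were tested only through their drought libraries.

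With copies summed, 0 of 7 loci were higher in heat than in drought and 4 lower, against 18.0% and 10.2% of loci. HAI1 gave a log2 difference of -3.71 ± 0.18, PP2CA -1.88 ± 0.04, HAB1 -1.26 ± 0.05 and HAI2 -1.16 ± 0.15, or -2.98 without fragments. ABI1 and HAB2 gave -0.56 ± 0.04 and -0.46 ± 0.05. ABI2 differed by -0.01 (95% interval -0.19 to 0.18), with 16.3, 15.1 and 16.1 FPKM in drought and 14.6, 16.3 and 16.4 in heat. Among the 7 loci, ABI2 was the one whose levels overlapped between the treatments.

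Other loci in and around the pathway were read from 5 lists, 46 loci in all, of which 38 were tested with copies summed. In drought 6 of 38 were higher and 4 lower, against 5.08% and 7.31% of all loci. In heat 10 were higher and 4 lower, against 14.5% and 10.4%. The same shares are the background of the counts for each list.

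The PYR/PYL receptors, which bind the hormone and then the phosphatases, had 9 loci tested, with 1 higher and 2 lower in drought and 6 higher and 0 lower in heat, the treatment in which more of all loci were higher (14.5%, against 5.08% in drought). PYL4 stood at 37.6 ± 3.88 FPKM in control, 6.63 ± 0.450 in drought and 115.5 ± 1.56 in heat, lower in drought and higher in heat. PYL9 rose in drought, from 48.7 ± 2.29 to 112 ± 2.37 FPKM, with 53.3 ± 4.14 in heat. In heat PYL8 rose from 17.9 ± 1.17 to 67.8 ± 2.11 FPKM and PYL6 from 1.61 ± 0.424 to 45.9 ± 4.83.

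The SnRK2 kinases, a family that includes substrates of the phosphatases, had 10 loci tested, with 0 higher and 1 lower in drought and 2 higher and 1 lower in heat. The list holds the whole family, not only the kinases of the abscisic acid core. SnRK2.8 fell in both, from 51.1 ± 3.61 FPKM to 13.0 ± 1.08 in drought and 6.67 ± 0.620 in heat. SnRK2.2, a main kinase of the abscisic acid response, stood at 3.01 ± 0.534 in control, 2.64 ± 0.533 in drought and 66.2 ± 3.17 in heat, where it rose. SnRK2.1 gave a log2 change of 0.42 ± 0.05 in drought, under the size required.

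The ABF transcription factors, which the kinases activate, had 5 loci tested, with 2 higher and 0 lower in drought and 1 higher and 1 lower in heat. ABF3 rose in drought from 22.6 ± 1.89 to 48.1 ± 2.65 FPKM, and ABF4 gave 0.60 ± 0.06. In heat ABF1 rose from 0.576 ± 0.486 to 10.5 ± 1.27 FPKM and ABI5 fell from 5.31 ± 0.468 to 0.367 ± 0.147.

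Of 6 loci tested among the NCED enzymes, which make the precursor of abscisic acid, and the CYP707A enzymes, which break the hormone down, 2 were higher and 1 lower in drought, and 1 higher and 2 lower in heat. NCED9 fell from 75.9 ± 2.81 FPKM to 3.84 ± 0.490 in drought and 3.93 ± 0.521 in heat. CYP707A4 rose in drought from 0.876 ± 0.0992 to 18.5 ± 0.858 FPKM. NCED3, the main drought-induced synthesis gene of Arabidopsis leaves, stood at 33.6 ± 2.503 FPKM in control and 37.2 ± 1.32 in drought, and fell to 6.83 ± 1.98 in heat.

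Of 8 loci that act on clade A phosphatases in Arabidopsis, through their transcription, activity or breakdown, 1 was called higher and 0 lower in drought. In heat 0 were called, since no change reached the size required, though most passed the adjusted p alone. HB7, a homeodomain factor that in Arabidopsis raises transcription of clade A phosphatase genes, rose in drought from 16.0 ± 1.37 to 91.9 ± 2.51 FPKM, with 18.8 ± 0.453 in heat. HB12, its relative, gave 0.48 ± 0.05 in drought and -0.47 ± 0.05 in heat. BPM5, an adaptor of the ubiquitin ligase that marks PP2CA for breakdown, gave 0.89 ± 0.09 in heat.

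**Figure D4:**
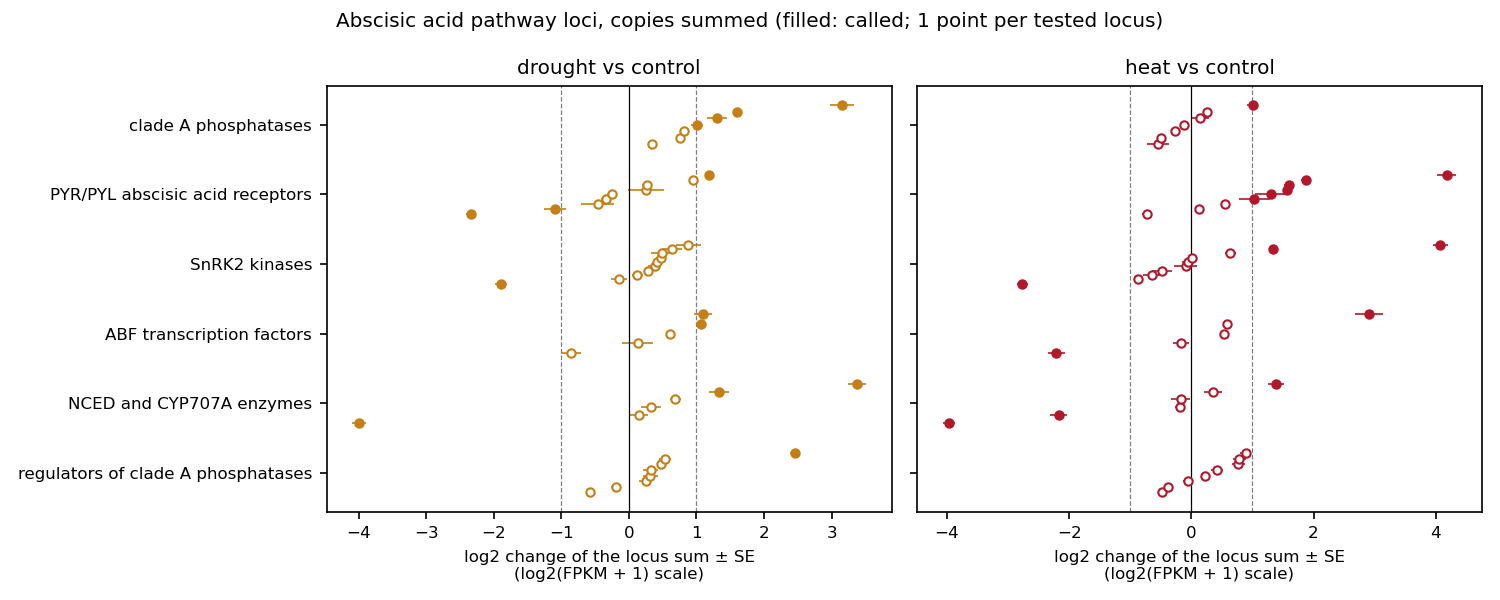
Log2 change of each tested locus with copies summed, ± SE, for the clade A phosphatases and the 5 pathway lists, in drought (left) and heat (right); filled points are called. In drought 4 of 7 phosphatase loci and 1 of 9 receptor loci are called higher, and in heat 1 of 7 and 6 of 9.

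Guard-cell markers summed to 72.8 to 74.6 FPKM in control, 60.1 to 69.6 in drought and 64.7 to 69.8 in heat, and 0 of 5 were called in either treatment. Of all loci 5.08% were higher and 7.31% lower in drought, and 14.5% and 10.4% in heat, so 0 of 5 says little. Leaf mesophyll markers summed to 77779 to 78841, 51723 to 52423 and 50980 to 53072 FPKM, with 0 of 6 higher and 2 lower in drought, and 2 higher and 1 lower in heat. These did not move alike, since LHCB1.3 went from 6444 FPKM in control to 2041 in drought and 16391 in heat and LHCB2.1 from 489 to 173 and 1279, while RCA went from 24731 to 21870 and 8288. Seed markers summed to 1.60 to 3.05 FPKM in control, 3.19 to 3.89 in drought and 21.6 to 24.8 in heat, through OLE1 alone, an oil-body protein, with 3 of the 5 at 0 in all libraries. Root markers summed to 2.36 to 2.87, 0.135 to 1.03 and 0.256 to 0.488 FPKM, with 3 of the 6 at 0. The part of these markers' cells in the phosphatase levels was not tested.

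For each locus called in drought or heat, the 3 other loci most like it were named by Pearson's r of log2(FPKM + 1) over the 9 libraries, among 10859 loci with a mean of at least 10 FPKM in a group. The 9 libraries fall into 3 groups, so r describes mainly the 3 group levels. For PP2CA these were the ferritin gene FER1 (r = 0.999), Fes1A (0.999), a protein that binds HSP70, and AACT1 (0.999). FER1 stood at 8.89 FPKM in control, 699.8 in drought and 3.79 in heat. For HAI1 they were the MADS-box gene AGL19 (0.999), AT1G55530 (0.996) and the alternative oxidase AOX1A (0.994). For ABI2 they were AT1G71350 (0.996), DGAT2 (0.993), an enzyme of oil synthesis, and AT1G04770 (0.992), with AT1G04770 at 37.2, 108 and 109 FPKM in control, drought and heat. For HAI2 they were AT5G24240 (0.983), AT1G76920 (0.983) and AT4G13400 (0.978). This HAI2 sum includes the fragment BnaA01g23280D, which held 79.3% of it in control and 83.3% in heat. Whether these loci resemble the full HAI2 copies was not tested.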

How the data were processed

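Polyadenylated RNA of 9 Brassica napus leaf libraries was analysed in a deposited table. Its column names lack the species code and were matched to the Brassica napus sample titles, since the table holds that species' gene models under that code. Reads were aligned with HISAT2, per the submitters' processing notes. The aligner version, genome build, annotation and read counter are unstated in the sources used here, as is the unit. From the values, the authors deposited FPKM (RPKM would describe them equally well): multiplied by coding length (3 bases per amino acid and a stop codon), values are whole steps within 0.01 for 99.43% to 99.47% of values per library. The percent identity to the Arabidopsis protein is the authors' own, per the file headers.

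Values were used as log2(FPKM + 1), unscaled. Tested were 44260 rows (1 FPKM or more in 3 or more libraries) and 16186 Arabidopsis loci with copies summed. limma 3.58.1 (R 4.3.3, data.table version 1.17.8) fitted the 3 groups over 9 libraries with trend and robust moderation, and p-values were adjusted by Benjamini-Hochberg over the whole table for each of 3 comparisons. Copy pairs were tested on their log2 ratio over 55054 pairs. No test was run over a list. The copies and lists were chosen with earlier results of these data known. Named were every copy and locus of the phosphatases with a group mean of at least 1 FPKM, and of each list the 2 loci with the smallest adjusted p per treatment among those of at least 5 FPKM. After the values were seen, AT1G14200 was taken out of the list of regulators, where it had been entered under another gene's name; it had risen in drought, from 23.5 ± 2.61 to 113 ± 15.5 FPKM. The fits were tested on simulated data, for rows of at least 5 FPKM in control and changes of at least 3-fold. That simulation does not cover lower copies, such as those of HAI1, or changes near the size required. Alternatives were a pseudocount of 0.1, no filter or 5 FPKM, TMM-type factors, quantile normalization, plain limma, a replicate block, only the groups compared, no fold threshold, voom on recovered reads, each library left out and, added after the data were seen, no fragments. Tables and figures used Matplotlib 3.10.9, pandas 2.3.3 and NumPy 2.4.6 under Python 3.11.15.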

Additional observations from a re-analysis of the deposited data

How the results depend on the processing

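Of 33 called changes of copies and loci, 27 kept their direction and their call under every alternative run and 4 lost the call under at least 1. The other 2, of BnaC09g34350D in drought and in heat against drought, kept both except with a filter of 5 FPKM, which that copy did not pass, so that 9 copies were called in drought and 8 in heat against drought. No called change turned. With no fold threshold, 18 of 25 copies were called in drought, 20 in heat and 17 in heat against drought. Over all rows, 19.6% were then higher and 26.5% lower in drought, 40.1% and 27.6% in heat, and 42.9% and 26.7% in heat against drought. Of the 7 loci, 7 were called in drought and 6 in heat. Of the 51 loci of the pathway and other phosphatase lists, 41 were called in drought (from 12) and 41 in heat (from 21). Of all 16186 loci, 4098 were then higher and 5362 lower in drought, and 7566 and 4820 in heat. Of 84 pairs of copies 54 were called (from 29), with no share over all pairs given at this setting. The copies called in heat were 3 with TMM-type scaling and 8 with voom, against 5. The loci called in heat were 0 with TMM-type scaling or quantile normalization, 2 with a pseudocount of 0.1 FPKM or voom, and 0 to 1 with a library left out, against 1. Small uncalled values turned: in drought BnaC07g40100D was 0.030 with TMM-type scaling, and in heat BnaC05g05180D was -0.055 with TMM-type scaling, -0.062 with quantile normalization and -0.040 to 0.052 with a library left out, BnaC09g34350D was -0.126 to 0.043 with a library left out, and the HAI2 sum was -0.039 and -0.038 with these scalings and -0.10 without fragments. The ABI2 sum in heat against drought was -0.039 to 0.043 with a library left out. BnaA01g37370D in heat was 0.99 with TMM-type scaling. The cause was not tested. With a library left out, the copies called were 10 to 11 in drought, 4 to 5 in heat and 9 to 10 in heat against drought, and the loci called in drought 3 to 4. Replicate numbers did not pair the libraries, since deviations of same-numbered libraries correlated at -0.02 to 0.03 and 7 of 18 correlated best with their own number. With the replicate number as a block, 10 copies were called in drought, 5 in heat and 28 pairs. Changes of copies under 1 FPKM in control rest on 0 to 14 reads per control library, 5 to 182 per drought library and 0 to 33 per heat library.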

Other observations

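Other protein phosphatases 2C, which do not take part in the abscisic acid core, were read from 3 lists with copies summed. Of 7 clade D loci tested, phosphatases of the plasma-membrane proton pump in Arabidopsis, 0 were called in drought and 2 were lower in heat. PP2C-D8 fell in heat from 25.8 ± 0.251 to 10.9 ± 0.855 FPKM (SD, n = 3), while PP2C-D5 gave a log2 change of -0.87 ± 0.09 in drought. PP2C-D4 gave -0.88 ± 0.07 in heat, and PP2C-D2 gave 0.33 ± 0.06 in drought.

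Of 3 clade B loci tested, phosphatases of mitogen-activated protein kinases, 0 were higher and 2 lower in drought, and 1 was higher and 2 lower in heat. AP2C1 stood at 102 ± 7.87 FPKM in control and 133 ± 4.62 in drought and fell to 26.2 ± 2.96 in heat. AP2C2 fell from 6.07 ± 0.779 to 0.556 ± 0.180 in drought and 0.137 ± 0.119 in heat, and AP2C4 went from 1.68 ± 0.131 to 0.290 ± 0.262 and 6.08 ± 1.52. Of the 3 EGR loci of clade E, which restrain growth in Arabidopsis under drought, 0 were called in drought and 2 fell in heat. EGR1 went from 35.3 ± 3.00 to 10.2 ± 1.17 FPKM in heat, and EGR3 from 26.7 ± 1.12 to 7.11 ± 0.854. EGR2 gave 0.23 ± 0.07 in drought. Over all loci, 5.08% were higher and 7.31% lower in drought, and 14.5% and 10.4% in heat. In drought 0 of these 13 loci were higher, which in so few loci is near the share of 5.08%.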
